A study of Mus musculus with 6 samples.

Results

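Chemokines are small secreted proteins that attract cells, and chemokine receptors are the membrane proteins that read them. The 53 genes described here are those whose symbol in the array's annotation names a CC, CXC, CX3C or XC chemokine ligand or receptor by number, together with Ppbp and Pf4, which are CXC ligands under older names. They were chosen by a rule on symbols, though with earlier results of these data known, and make up 53 of the 16504 named genes on the array. The 53 genes comprised 36 ligands and 17 receptors, read by 54 spots.

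The cells were mouse embryonic fibroblasts of the 129/Sv-Black Swiss background, taken from embryos of 15.5 days and used at passage 2, after 10 population doublings. Fibroblasts of 3 genotypes were each set against wild-type fibroblasts of the same background: a Wrn helicase in-frame deletion, a PARP-1 null, and the Wrn-PARP1 double mutant. Wrn is the mouse counterpart of the DNA helicase mutated in Werner syndrome, and PARP-1 is a DNA-damage-sensing enzyme that adds poly(ADP-ribose) to proteins. Each genotype had 2 arrays, 1 for each of 2 pools, and a pool held cells of 3 embryos from 1 litter. The spread between the 2 arrays of a genotype therefore holds the difference between 2 litters. It also holds differences between hybridisations and any change of wild-type pool.

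Each array was a 2-colour hybridisation of cytoplasmic RNA, with wild-type RNA in Cy5 and mutant RNA in Cy3, and no array swapped the dyes. Wild-type cells had no array of their own. A probe's dye bias therefore adds to every comparison with wild type in the same direction and cancels only between mutants, and the wild-type pool of each array was not stated in the labels. All values below are log2 ratios per gene, so that 1 is 2-fold, and a positive value is read as mutant over wild type. That direction is likely rather than certain: Parp1 stood at -2.61 and -2.30 on the PARP-1 null arrays and at -2.97 and -2.59 on the double mutant arrays, against -0.12 and -0.31 on the Wrn mutant arrays, but Agilent's usual ratio of Cy5 over Cy3 would run the other way. Wrn itself stood at 0.84 and 0.58, 0.05 and -0.29, and 0.25 and 0.71 on the arrays of the Wrn mutant, PARP-1 null and double mutant, and as the place of its probe against the deleted part is not known it checks nothing. With the sign turned, every direction given here is mirrored and no size changes. The median ratio was 0 on all 6 arrays, and between 16.9% and 23.7% of spots per array held a ratio of exactly 0, whose meaning was not stated. Only ratios were available, so neither the absolute level of a chemokine nor the fibroblast identity of the cells could be read from marker levels.

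Chemokines fall into families by the spacing of their first cysteines, and their receptors couple to G proteins. CXC ligands that carry a glutamate-leucine-arginine (ELR) motif act on Cxcr2 and draw neutrophils, while the inflammatory CC ligands draw monocytes, eosinophils and T cells through several shared receptors, and fibroblasts are a well-known source of both after cytokine stimulation. Homeostatic chemokines such as Cxcl12, the ligand of Cxcr4, place cells within tissues without stimulation.

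In the double mutant, 9 of the 53 genes passed the test against wild type, at an adjusted p under 0.05 in limma with Benjamini-Hochberg adjustment over all 20679 features. The ligands Ppbp, Cxcl14, Cxcl1, Cxcl2, Ccl20 and Ccl25 and the receptor Cxcr6 rose, and the ligand Ccl17 and the receptor Ccr10 fell. In the PARP-1 null 1 gene passed, Ccr10, which fell. In the Wrn mutant limma called 0 of 53, with 12 at an unadjusted p under 0.05 and a smallest adjusted p of 0.0660. The same test called 18.5% of all named genes in the double mutant (10.1% higher and 8.38% lower). It called 7.19% for the PARP-1 null (3.33% higher and 3.87% lower) and 2.35% for the Wrn mutant (1.01% higher and 1.34% lower). The 17% of chemokine genes called in the double mutant was near that background, and is not a result about chemokines as a group. The shares over all named genes are also the background for the counts of each gene group and list below. The median over the 53 genes was 0 in each mutant, as it was over all named genes.

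**Figure D1:**
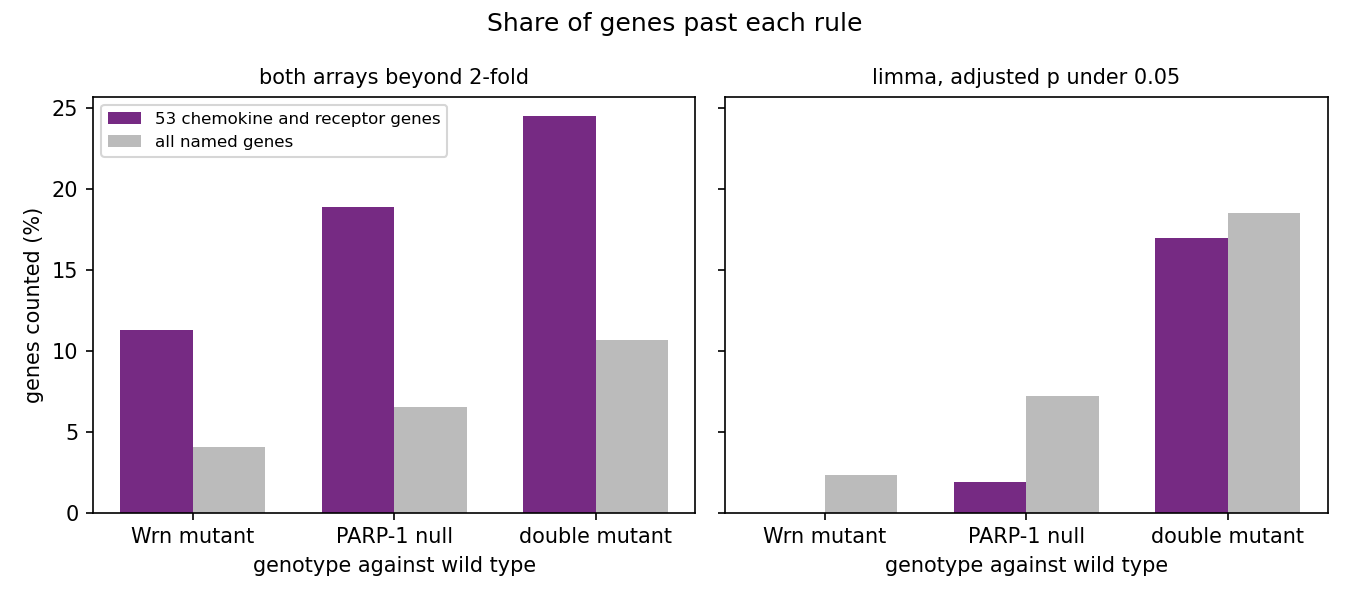
Share of the 53 chemokine and receptor genes (percent, vertical axis) and of all 16504 named genes in each mutant against wild type, past 2-fold on both arrays or passing the limma test at an adjusted p under 0.05. In the double mutant 24.5% of the chemokine genes and 10.7% of all named genes lay past 2-fold on both arrays, while 17% and 18.5% passed the test.

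Counted by size alone, more chemokine genes stood past 2-fold on both arrays than named genes at large, a count with no test. The number was 6 of 53 in the Wrn mutant (11.3%, against 4.07% of all named genes, 1.44% higher and 2.62% lower). It was 10 in the PARP-1 null (18.9% against 6.53%, of which 2.7% higher and 3.84% lower) and 13 in the double mutant (24.5% against 10.7%, of which 4.71% higher and 6.03% lower). Among the 36 ligands, 4 lay higher and 1 lower in the Wrn mutant by this count, and 7 higher and 2 lower in each of the other genotypes. Among the 17 receptors, Ccr10 lay lower in all 3 genotypes, and in the double mutant Ccr7 and Cxcr6 also lay higher and Ccr1 lower. On all 6 arrays 4 members (against 1.97% of all named genes) were past 2-fold on the same side: Ccl20 and Cxcl2 above, Ccl17 and Ccr10 below. These 4 share the wild-type channel and the dye order on every array.

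The calls were not firm. A fit without an array also leaves that array's genotype with 1 array, which by itself makes a call there harder. Leaving out either double mutant array left limma with 0 of the 9 calls in that genotype, leaving out either PARP-1 null array left 2 (Ccl17 and Ccl25) and leaving out either Wrn mutant array left 4 (Cxcl2, Ppbp, Ccr10 and Cxcr6), since all arrays share 1 estimate of the spread. In each case 1 other gene passed, Cxcl10 without a PARP-1 null array and Ccr7 without a Wrn mutant array, for totals of 3 and 5. With exact zeros set to missing, the counts became 8, 10 and 15 in the Wrn mutant, PARP-1 null and double mutant, while those over all named genes became 883, 2231 and 4350 from 388, 1187 and 3052.

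**Figure D2:**
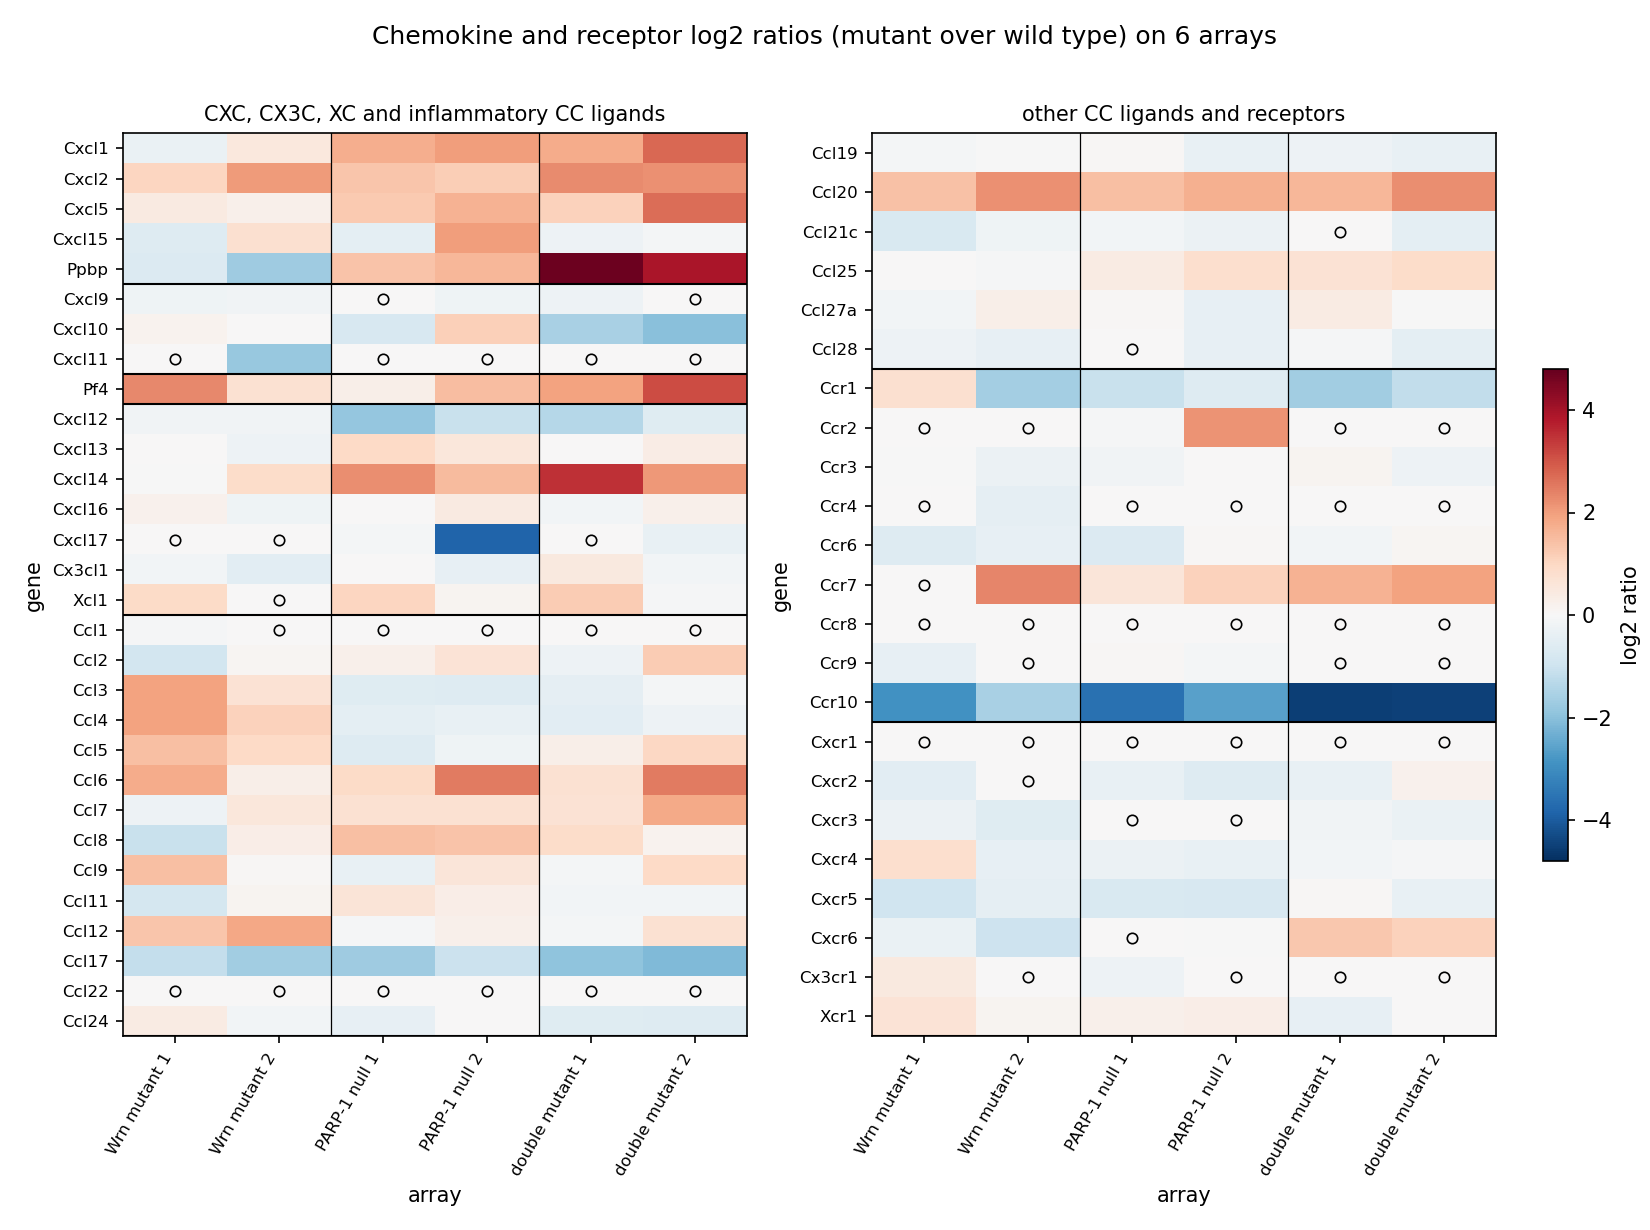
Log2 ratio of mutant over wild type (colour) for the chemokine and receptor genes (rows) on the 6 arrays (columns, 2 per genotype), with cells at exactly 0 marked. Ppbp runs from -1.69 and -0.64 in the Wrn mutant to 4.72 and 3.94 in the double mutant, and Ccr10 is below 0 on every array.

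Of the 5 ELR ligands measured, 3 rose in the double mutant (Ppbp, Cxcl1 and Cxcl2) and the other 2, Cxcl5 and Cxcl15, did not pass. Over all named genes 10.1% were called higher there. The group is small and was listed with earlier results known, so the count is not a result about ELR ligands as a group. The median over the 5 ELR ligands was -0.32 and 0.52 on the Wrn mutant arrays, 1.33 and 1.67 on the PARP-1 null arrays, and 1.78 and 2.68 on the double mutant arrays. In the mouse genome these 5 genes and Pf4 lie in 1 run of chemokine genes on chromosome 5, in the RefSeq order Cxcl5, Ppbp, Pf4, Cxcl3, Cxcl15, Cxcl1 and Cxcl2, of which Cxcl3 was not measured. The 250 bases before the start of the 3 genes of the run that passed in the double mutant are shown. They are from RefSeq on the plus strand of GRCm38.p6, 5′ to 3′, at chr5:90768268-90768517 for Ppbp, chr5:90890995-90891244 for Cxcl1 and chr5:90903649-90903898 for Cxcl2, with matches to the NF-kB motif (GGG and TTCC with any 3 bases between them, on either strand) and to TATAAA (on the gene strand) in capitals.
Ppbp: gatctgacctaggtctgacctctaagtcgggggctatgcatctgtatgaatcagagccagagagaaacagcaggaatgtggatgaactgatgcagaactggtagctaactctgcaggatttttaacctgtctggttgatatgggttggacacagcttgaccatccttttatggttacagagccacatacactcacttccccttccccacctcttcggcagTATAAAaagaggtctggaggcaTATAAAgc
Cxcl1: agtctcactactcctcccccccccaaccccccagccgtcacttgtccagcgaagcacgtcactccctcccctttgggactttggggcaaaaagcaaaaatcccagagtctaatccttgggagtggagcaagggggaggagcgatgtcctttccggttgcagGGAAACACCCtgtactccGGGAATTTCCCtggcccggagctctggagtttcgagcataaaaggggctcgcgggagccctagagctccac
Cxcl2: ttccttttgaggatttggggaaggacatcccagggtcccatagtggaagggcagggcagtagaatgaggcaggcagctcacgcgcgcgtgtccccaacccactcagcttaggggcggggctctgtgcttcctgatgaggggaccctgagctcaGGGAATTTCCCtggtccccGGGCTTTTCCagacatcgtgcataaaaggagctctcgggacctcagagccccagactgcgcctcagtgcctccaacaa
Cxcl1 held 3 NF-kB matches, starting 89, 71 and 70 bases before the gene, and Cxcl2 held 3, at 97, 96 and 78 bases. In each gene the matches 1 base apart lie on opposite strands and overlap. Ppbp held none, and had TATAAA at 30 and 8 bases before its start and a match to the AP-1 motif TGANTCA, printed in lower case, at 204 bases. The NF-kB motif occurred in 4.65% of 32841 such windows of all genes, TGANTCA (either strand) in 6.75% and TATAAA in 7.59%. The 39 chemokine and receptor genes with a window had 43 windows. Of these, 8 held the NF-kB motif, 6 TGANTCA and 10 TATAAA, so the NF-kB motif was not the commonest of the 3. The 8 were those of Ccl1, Ccl20, Ccl9, Ccr3, Ccr6, Cxcl1, Cxcl10 and Cxcl2. A match describes letters only. The window of Cxcl10, whose ratios lay below 0 in the double mutant, held the NF-kB motif too, and that of Ccl1, at 0 on 5 arrays, also did.

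Ppbp, the platelet basic protein that is cut to the neutrophil attractant CXCL7, had the widest span of the 53 genes. Its log2 ratio was -0.64 and -1.69 in the Wrn mutant, 1.36 and 1.59 in PARP-1 null cells, and 4.72 and 3.94 in the double mutant. No arrays of different genotypes overlapped. Ppbp rose in the double mutant by 4.33 ± 0.55 (SD, n = 2 litters; adjusted p = 0.0136, limma with Benjamini-Hochberg adjustment), while its mean of 1.47 ± 0.16 in the PARP-1 null (adjusted p = 0.0981 in limma) and of -1.17 ± 0.74 in the Wrn mutant (0.172) did not pass. Leaving out either array of the PARP-1 null or of the double mutant ended the call, with an adjusted p of 0.0511 to 0.0947.

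Cxcl1, a main neutrophil attractant made by fibroblasts, stood at -0.32 and 0.52 in the Wrn mutant, 1.76 and 2.02 in PARP-1 null cells, and 1.78 and 2.74 in the double mutant. The 4 arrays that lack PARP-1 all lay above the 2 Wrn mutant arrays, and the PARP-1 null and the double mutant overlapped. Cxcl1 rose in the double mutant by 2.26 ± 0.68 (SD, n = 2; adjusted p = 0.0325 in limma), and its 1.89 ± 0.19 in the PARP-1 null gave an adjusted p of 0.0635. The call in the double mutant was lost on leaving out any of the 6 arrays (adjusted p 0.0684 to 0.117).

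Cxcl2, a close relative of Cxcl1 with the same receptor, was above 1 on every array: 1.04 and 2.06 in the Wrn mutant, 1.33 and 1.17 in PARP-1 null cells, and 2.26 and 2.18 in the double mutant. It rose in the double mutant by 2.22 ± 0.05 (SD, n = 2; adjusted p = 0.0241 in limma), and the adjusted p was 0.0829 for the Wrn mutant and 0.0855 for the PARP-1 null. In the double mutant it still passed without either Wrn mutant array and in none of the other 4 fits that leave out an array (0.0732 to 0.145). Cxcl1 and Cxcl2 are similar in sequence, and whether their probes share signal was not tested.

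Cxcl5, another ELR ligand, was lowest in the Wrn mutant too and did not pass: 0.43 and 0.23 in the Wrn mutant, 1.25 and 1.67 in PARP-1 null cells, and 1.09 and 2.68 in the double mutant (adjusted p = 0.0654 in limma there). Cxcl15, known in mice as lungkine, did not, with -0.62 and 0.77, -0.45 and 1.99, and -0.26 and -0.09 in the same order. Pf4, platelet factor 4, lacks the ELR motif. Its ratios of 2.32 and 0.73, 0.27 and 1.47, and 1.94 and 3.13 were above 0 on all 6 arrays, with the Wrn mutant arrays overlapping those of each other genotype, and its 2.54 ± 0.84 in the double mutant did not pass (adjusted p = 0.0702 in limma). Over the 6 measured genes of the chromosome 5 run, 3 were above 0 on both arrays in the Wrn mutant and 5 in each of the other genotypes.

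**Figure D3:**
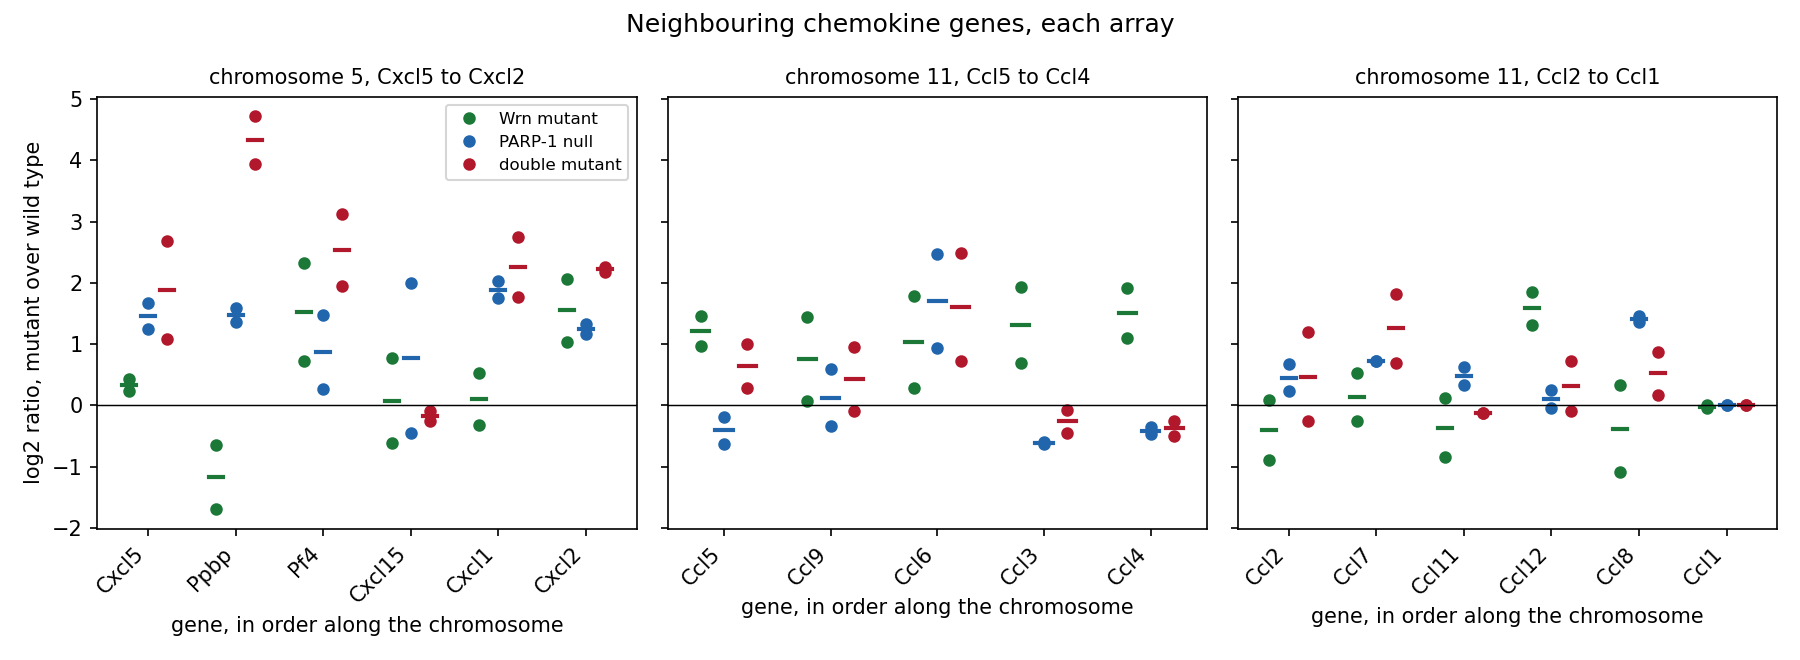
Log2 ratio of mutant over wild type (vertical axis) of neighbouring chemokine genes, in RefSeq order along chromosomes 5 and 11, with 1 point for each of the 2 arrays of each genotype and a bar at their mean. On chromosome 5 the medians over 6 genes are 0.05 and 0.63 on the Wrn mutant arrays and 1.86 and 2.71 on the double mutant arrays, while over Ccl5 to Ccl4 on chromosome 11 the Wrn mutant arrays are highest on Ccl3 and Ccl4.

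Ppbp and Pf4 are abundant in platelets, and the ELR ligands and S100a8 are also made by myeloid cells. Of the 9 neutrophil markers listed, 8 were measured, and in the double mutant 2 rose and 0 fell (10.1% and 8.38% of all named genes). The calprotectin subunit S100a8 stood at -0.76 and -1.58 in the Wrn mutant, 1.36 and 2.00 in PARP-1 null cells, and 4.89 and 4.64 in the double mutant (adjusted p = 0.0105 in limma). The 6 arrays stood in the same order for S100a8 as for Ppbp. Myeloperoxidase (Mpo) rose in the double mutant by 2.32 (adjusted p = 0.0409 in limma). S100a9, the partner of S100a8, and Csf3r, the receptor of the granulocyte growth factor Csf3, were exactly 0 on all 6 arrays, and the median over the 8 markers was 0 and 0.13, 0 and 0.89, and 0.24 and 0.14 on the arrays in order. Of 8 platelet and megakaryocyte markers 5 were measured, with array medians of 0.02 and 0.90, 0.15 and 0, and 0.64 and 0.08. In the double mutant Treml1 rose by 0.92 (adjusted p = 0.0214 in limma) and the other 4 did not pass, and Gp5 was exactly 0 on all 6 arrays. The part of these cells in the ratios of Ppbp and Pf4 was not tested, and in pooled RNA of many cells a change in the number of cells of a type and in the RNA per cell cannot be told apart.

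Among the CXC, CX3C and XC ligands without the ELR motif, 1 of 7 outside the CXCR3 ligands and Pf4 rose in the double mutant, Cxcl14, and 0 passed in the other genotypes. Cxcl14, a chemokine made by epithelia and fibroblasts, stood at -0.02 and 0.90 in the Wrn mutant, 2.21 and 1.52 in PARP-1 null cells, and 3.51 and 2.10 in the double mutant. The Wrn mutant arrays were the lowest, and the PARP-1 null and double mutant overlapped. Its mean in the double mutant was 2.80 ± 1.00 (SD, n = 2; adjusted p = 0.0387 in limma), and leaving out any of the 6 arrays ended the call (0.0784 to 0.162).

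Cxcl12, the homeostatic ligand of Cxcr4 that mesenchymal cells secrete, was below 0 on every array. It stood at -0.16 and -0.17 in the Wrn mutant, -1.86 and -1.08 in PARP-1 null cells, and -1.37 and -0.57 in the double mutant. All 4 arrays that lack PARP-1 were below both Wrn mutant arrays. Neither the -1.47 ± 0.55 of the PARP-1 null (SD, n = 2; adjusted p = 0.0743 in limma) nor the -0.97 ± 0.57 of the double mutant (0.107) passed. Cxcr4 itself was between -0.39 and 0.81 on all arrays.

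The CXCR3 ligands are induced by interferon and draw T cells. Cxcl10 stood at 0.18 and 0.02 in the Wrn mutant, -0.75 and 1.14 in PARP-1 null cells, and -1.56 and -1.99 in the double mutant. The double mutant arrays were the lowest, at -1.78 ± 0.31, without passing (adjusted p = 0.0971 in limma). Cxcl9 lay between -0.26 and 0 on all arrays, and Cxcl11 was exactly 0 on 5 arrays and -1.80 on the second Wrn mutant array, so the 3 ligands did not share a pattern. Their common receptor Cxcr3 lay between -0.57 and 0.

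The remaining ligands of this group had small or discordant ratios. The B cell attractant Cxcl13 stood at 0.97 and 0.54 in the PARP-1 null and between -0.25 and 0.34 elsewhere (adjusted p = 0.0811 in limma in the PARP-1 null), and the membrane-bound Cxcl16 lay between -0.22 and 0.43. Cx3cl1, fractalkine, was read by 2 spots that disagreed: 1 was above 0 on all 6 arrays, from 0.09 to 2.07, and the other below 0 on all 6, from -1.84 to -0.58. Their average, from -0.52 to 0.48, describes neither spot. Xcl1, lymphotactin, was higher on the first array of each genotype (0.93, 1.04 and 1.23) than on the second (0, 0.13 and -0.07).

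The inflammatory CC ligands had 1 call: of the 14 measured, Ccl17 fell in the double mutant and 0 passed in the other genotypes. In RefSeq order, Ccl5, Ccl9, Ccl6, Ccl3 and Ccl4 follow each other on chromosome 11, and all 5 were above 0 on both Wrn mutant arrays. In the PARP-1 null 1 of the 5 was above 0 on both arrays and 3 were below, and in the double mutant 2 were above and 2 below. Ccl3, macrophage inflammatory protein 1 alpha, stood at 1.93 and 0.69 in the Wrn mutant, -0.59 and -0.62 in PARP-1 null cells, and -0.44 and -0.08 in the double mutant. Ccl4, its beta partner, stood at 1.92 and 1.11, -0.47 and -0.35, and -0.49 and -0.25. For both genes the Wrn mutant arrays were above 0 and the other 4 below, but neither the Ccl4 mean of 1.51 ± 0.57 in the Wrn mutant (adjusted p = 0.0660 in limma) nor that of Ccl3 (1.31 ± 0.87, 0.140) passed.

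Ccl5, also called RANTES, stood at 1.46 and 0.97 in the Wrn mutant, -0.62 and -0.19 in PARP-1 null cells, and 0.29 and 1.00 in the double mutant. Only the PARP-1 null lay below 0, and the mean of 1.22 ± 0.34 in the Wrn mutant gave an adjusted p of 0.103 in limma. Ccl6 ran from 0.28 to 2.48 and differed more between the 2 arrays of a genotype, 1.78 and 0.28, 0.93 and 2.48, and 0.72 and 2.48, than between genotypes. Ccl9 spread likewise, from -0.34 to 1.45.

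Ccl3, Ccl4, Ccl6 and Ccl9 are made by macrophages. Of the 10 macrophage markers listed, 8 were measured and 0 passed in any genotype in limma, with array medians of 0.85 and 0.07 in the Wrn mutant, -0.14 and -0.05 in PARP-1 null cells, and -0.27 and 0.05 in the double mutant. The first Wrn mutant array, where Ccl3, Ccl4 and Ccl9 were highest, also had the highest marker median. Adgre1, which encodes the F4/80 antigen, stood at 1.60 and 0.75, -0.59 and -0.20, and 0.39 and 0.47, and the mannose receptor Mrc1 at 1.46 and 1.28, 0.24 and 0.75, and 0.08 and 0.58. In the Wrn mutant 3 of the 8 markers had a mean below 0 (Lyz2 at -0.58, Itgam at -0.14 and Fcgr3 at -0.05), and Cd163 was exactly 0 on both arrays. In the other genotypes the markers with the largest means were Cd163, at 1.51 in the PARP-1 null from a single array, Lyz2 (-1.06 there and -1.98 in the double mutant) and Cd14 (1.06 in the double mutant). The part of macrophages in these ligands' ratios was not tested.

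The second chromosome 11 run, Ccl2, Ccl7, Ccl11, Ccl12, Ccl8 and Ccl1, had array medians between -0.55 and 0.50 and no call. Ccl12, a mouse monocyte attractant, was past 2-fold on both Wrn mutant arrays (1.31 and 1.85; adjusted p = 0.0784 in limma) and stood at -0.05 and 0.25 in the PARP-1 null and -0.08 and 0.72 in the double mutant. Its neighbour Ccl2, the main monocyte attractant, stood at -0.89 and 0.08, 0.23 and 0.67, and -0.26 and 1.20. Both Wrn mutant arrays lay below both PARP-1 null arrays, and the double mutant overlapped each. Ccl7, which also acts on Ccr2, was 0.69 and 1.82 in the double mutant (adjusted p = 0.0970 in limma) and 0.72 on both PARP-1 null arrays. Ccl8 was past 2-fold on both PARP-1 null arrays, at 1.45 and 1.36 (adjusted p = 0.138 in limma), and lay between -1.08 and 0.88 on the others. The eosinophil attractants Ccl11 and Ccl24 stayed between -0.84 and 0.63.

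Ccl17, the ligand of Ccr4 that dendritic cells make to draw T helper cells, was below -1 on every array. It stood at -1.14 and -1.68 in the Wrn mutant, -1.69 and -1.03 in PARP-1 null cells, and -1.95 and -2.11 in the double mutant. The double mutant arrays were the lowest and the single mutants overlapped. Ccl17 fell in the double mutant by 2.03 ± 0.12 (SD, n = 2; adjusted p = 0.0216 in limma), and the adjusted p was 0.0744 for the Wrn mutant and 0.0552 for the PARP-1 null. Leaving out either Wrn mutant or double mutant array ended the call (0.0517 to 0.126). Ccl22, the other ligand of Ccr4, was exactly 0 on all 6 arrays and Ccr4 on 5.

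Among the 6 measured homeostatic and epithelial CC ligands, 2 rose in the double mutant and 0 passed elsewhere. Ccl20, the ligand of Ccr6 that inflamed epithelia and stromal cells release, was past 2-fold above 0 on all arrays: 1.42 and 2.18 in the Wrn mutant, 1.43 and 1.69 in PARP-1 null cells, and 1.60 and 2.24 in the double mutant. The 3 genotypes overlapped. Ccl20 rose in the double mutant by 1.92 ± 0.45 (SD, n = 2; adjusted p = 0.0291 in limma) and its adjusted p was 0.0669 for the Wrn mutant and 0.0589 for the PARP-1 null. Leaving out any of the 6 arrays ended its call in the double mutant (0.0559 to 0.119).

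Ccl25, a thymic and gut ligand of Ccr9, stood at 0 and -0.04 in the Wrn mutant, 0.40 and 0.79 in PARP-1 null cells, and 0.68 and 0.86 in the double mutant. It rose in the double mutant by 0.77 ± 0.13 (SD, n = 2; adjusted p = 0.0316 in limma), where leaving out a Wrn mutant or double mutant array ended the call (0.0874 to 0.140), and its adjusted p in the PARP-1 null was 0.0702. The Wrn mutant arrays lay below the other 4. Ccl19, Ccl21c, Ccl27a and Ccl28 stayed between -0.71 and 0.41 on all arrays.

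**Figure D4:**
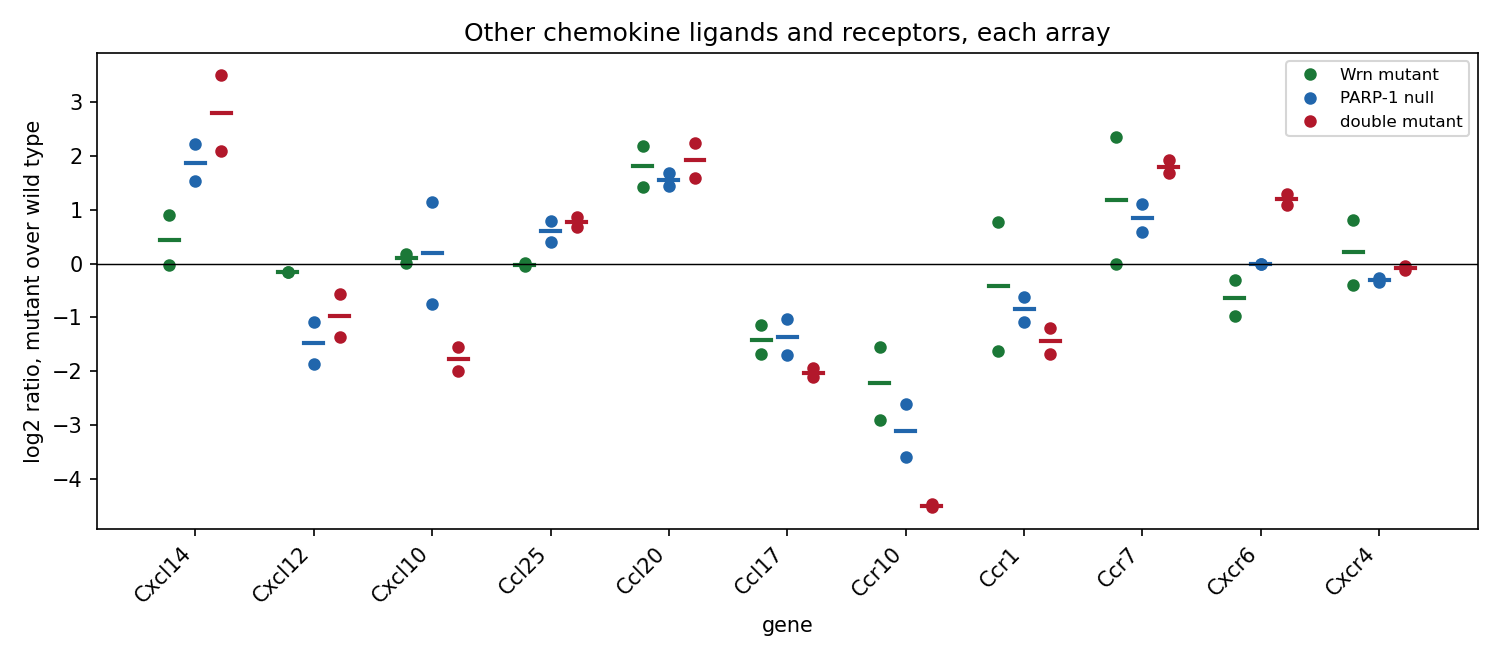
Log2 ratio of mutant over wild type (vertical axis) for other chemokine ligands and receptors (horizontal axis), with 1 point for each of the 2 arrays of each genotype and a bar at their mean. Ccl20 is above 1 and Ccl17 below -1 on all 6 arrays, Ccr10 lies between -4.53 and -1.54, and Cxcr6 is above 1 on the double mutant arrays only.

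Of the 17 receptors, 2 passed in the double mutant and 1 in the PARP-1 null. Ccr10, the receptor for Ccl27 and Ccl28 found on skin-homing T cells and plasma cells, had the lowest mean ratio of the 53 genes in each genotype. It was read by 1 spot, annotated to a cDNA clone, while the other receptors' spots were annotated to RefSeq transcripts. Whether this spot reads the receptor transcript was not tested. Its ratios were -2.90 and -1.54 in the Wrn mutant, -3.59 and -2.61 in PARP-1 null cells, and -4.53 and -4.47 in the double mutant. All 6 lay more than 2-fold below wild type, and both double mutant arrays were below the other 4. Ccr10 fell in the PARP-1 null by 3.10 ± 0.69 (SD, n = 2; adjusted p = 0.0448 in limma) and in the double mutant (adjusted p = 0.0180), and its -2.22 ± 0.96 in the Wrn mutant did not pass (0.0972). Leaving out any of the 6 arrays ended the call in the PARP-1 null (0.0620 to 0.175), and leaving out a PARP-1 null or double mutant array ended that in the double mutant (0.0509 to 0.120).

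Cxcr6, the receptor of Cxcl16 on T cells, was -0.31 and -0.98 in the Wrn mutant, 0 and -0.01 in PARP-1 null cells, and 1.29 and 1.09 in the double mutant. The genotypes did not overlap. Cxcr6 rose in the double mutant by 1.19 ± 0.14 (SD, n = 2; adjusted p = 0.0331 in limma), and leaving out a PARP-1 null or double mutant array ended the call (0.0927 to 0.181). Of the 7 measured markers of T and NK cells 0 rose there, with Nkg7 at 1.74 (adjusted p = 0.0828 in limma), and Cd3g, a part of the T cell receptor complex, fell in the double mutant by 1.53 (adjusted p = 0.0214 in limma).

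Ccr7, the lymph-node homing receptor of Ccl19, was 0 and 2.34 in the Wrn mutant, 0.59 and 1.10 in PARP-1 null cells, and 1.69 and 1.92 in the double mutant, and did not pass (adjusted p = 0.142 in limma in the double mutant). Ccr1, which reads Ccl3 and Ccl5, was 0.78 and -1.62 in the Wrn mutant, -1.08 and -0.63 in PARP-1 null cells, and -1.68 and -1.19 in the double mutant (0.225). In both genes the 2 Wrn mutant arrays differed more from each other than the genotype means did. Cxcr2, the receptor of the ELR ligands, lay between -0.62 and 0.19, and Ccr6, the receptor of Ccl20, between -0.65 and 0.09, so neither showed a 2-fold ratio on any array. Ccr3, an eotaxin receptor, Cxcr5, the receptor of Cxcl13, and Xcr1, the receptor of Xcl1, stayed between -0.94 and 0.66.

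A ratio of exactly 0 was common among the receptors. Exactly 0 on 3 or more arrays were 6 of the 17 receptors (Ccr8 and Cxcr1 on all 6, Ccr4 on 5, Ccr2 and Cx3cr1 on 4, Ccr9 on 3) and 4 of the 36 ligands (Ccl22 on all 6, Ccl1 and Cxcl11 on 5, Cxcl17 on 3). A further 8 members were 0 on 1 or 2 arrays and 35 on none. Among genes that are mostly 0, single arrays stood far off: Ccr2, the receptor of Ccl2, was 2.17 on the second PARP-1 null array, and Cxcl17 was -3.86 on the same array, against -0.10 on the other.

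Between mutants, limma called 0 of the 53 genes in the double mutant against the Wrn mutant (10 at an unadjusted p under 0.05), 0 in the double mutant against the PARP-1 null (3) and 0 in the PARP-1 null against the Wrn mutant (11). Over all named genes it called 0, 0 and 1, or 0%, 0% and 0.00606%. The departure of the double mutant from the sum of the single mutants gave 0 calls among members (6 at an unadjusted p under 0.05) and 0% over all named genes. The comparisons between mutants are free of a shared dye bias, though not of differences between the wild-type pools, and the departure from the sum is free of neither. Ppbp had the largest difference, 5.50 between the double and the Wrn mutant (SE 0.49; adjusted p = 0.105 in limma) and 2.86 between the double mutant and the PARP-1 null (0.557), and its departure from the sum was 4.02 (0.154). Cxcr6 differed by 1.84 between the double and the Wrn mutant (0.155), with a departure of 1.85 (0.187), and Ccl4 by -1.88 (0.177). So for no chemokine gene was a difference between 2 mutants shown by this test, whichever of them passed against wild type. The arrays of the double and the Wrn mutant did not overlap for 22 members (41.5%, against 41.6% of all named genes). Those of the double mutant and the PARP-1 null did not overlap for 20 (37.7% against 32.4%), and those of the PARP-1 null and the Wrn mutant for 18 (34% against 33.2%). These shares are near the background and are not results about chemokines.

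In a list of cytokines and receptors linked to chemokine induction, the cytokines Il6 and Csf3 had calls in several genotypes. Whether they act before the chemokines in these cells was not tested. Of the 16 genes of this list that were measured (17 listed), 1 rose in the Wrn mutant, 2 rose in the PARP-1 null, and 3 rose and 2 fell in the double mutant. Over all named genes 2.35%, 7.19% and 18.5% were called in these genotypes. The counts of this and the following pathway lists are not results about pathways. Il6, an inflammatory cytokine of fibroblasts, stood at 0.81 and 1.22 in the Wrn mutant, 2.88 and 2.65 in PARP-1 null cells, and 2.95 and 2.83 in the double mutant. It rose in the PARP-1 null and the double mutant (adjusted p = 0.0104 in limma for each) but not in the Wrn mutant (0.0543). Csf3, the granulocyte growth factor G-CSF, rose in all 3 genotypes, by 1.29, 1.29 and 2.04 (adjusted p 0.0256, 0.0189 and 0.0104 in limma), and its call in the double mutant was kept in all 6 fits that leave out an array. In the double mutant Il11 also rose, by 0.66, while Tnfrsf1a, a receptor of TNF, fell by 1.55 and Il17ra, a receptor of IL-17, fell by 1.18 (adjusted p 0.0327, 0.0355 and 0.0240 in limma). Il6 passed in 5 of the 6 fits that leave out an array in the PARP-1 null and in 4 in the double mutant, and every other call of a pathway or marker gene named here in 0 to 4.

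Of the 15 NF-kB and interferon transcription factors and regulators measured of 18, 0 rose and 1 fell in the Wrn mutant, 1 rose and 1 fell in the PARP-1 null, and 1 rose and 3 fell in the double mutant. The shares called over all named genes were again 2.35%, 7.19% and 18.5%. Tnfaip3, which encodes the NF-kB inhibitor A20, fell in all 3 genotypes, by 0.90, 1.07 and 0.94 (adjusted p 0.0472, 0.0253 and 0.0216 in limma). The inhibitor gene Nfkbib rose by 0.38 in the PARP-1 null and by 0.32 in the double mutant (0.0417 and 0.0351 in limma), and Relb, an NF-kB subunit, fell by 0.54 in the double mutant (0.0468). Irf7, an interferon-induced transcription factor, stood at -0.23 and 0.26, -0.70 and -0.71, and -1.60 and -2.51. It fell in the double mutant (adjusted p = 0.0264 in limma), the genotype in which the interferon-induced Cxcl10 was also lowest.

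Of 20 measured genes of receptor signalling (21 listed), 0 rose in any genotype, 1 fell in the Wrn mutant and 2 fell in each of the others. For this list and those that follow, the shares over all named genes are the same as above. Plcb2, a phospholipase activated by chemokine receptors, fell in all 3 genotypes, by 1.43, 1.40 and 1.83 (adjusted p 0.0343, 0.0266 and 0.0128 in limma). Grk5, a kinase that silences such receptors, fell in the PARP-1 null by 0.81 and in the double mutant by 0.93 (0.0215 and 0.0131). Among the 5 atypical receptors, which bind chemokines without G protein signalling, Ackr1 rose in the PARP-1 null by 0.73 and in the double mutant by 0.64 (adjusted p 0.0493 and 0.0395 in limma), and Ackr3, which takes up Cxcl12, fell in the double mutant by 0.55 (0.0414). Of 11 measured genes that cut or display ligands (12 listed), 0 passed in the Wrn mutant, 1 fell in the PARP-1 null, and 1 rose and 2 fell in the double mutant. In the Wrn mutant the largest means were those of Dpp4, a peptidase that trims chemokines, at 1.90, and Adam17, at -1.42. Dpp4 was not particular to that genotype. It stood at 3.34 and 0.46 in the Wrn mutant, 3.13 and 2.53 in PARP-1 null cells, and 2.73 and 3.20 in the double mutant, and passed in none. Mmp8, a collagenase that processes ELR ligands, rose in the double mutant by 2.84 (adjusted p = 0.0370 in limma), and the sheddases Adam10 and Adam17, which release Cx3cl1 and Cxcl16, fell there by 1.55 each (0.0352 and 0.0394). Adam17 also fell in the PARP-1 null, by 2.00 (0.0412).

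Markers of other cell types had few calls. Against wild type, 0 of 7 endothelial and 0 of 3 measured erythroid markers passed in any genotype. Of these, Emcn stood at -3.08 in the double mutant (adjusted p = 0.0508 in limma) and Alas2 at 1.42 in the Wrn mutant (0.129), and the endothelial Tie1, the erythroid Epor and the mast cell marker Cpa3 were exactly 0 on all 6 arrays. Single markers fell in the double mutant for B cells (Ms4a1 by 1.33) and mast cells (Mcpt4 by 0.89), and in the PARP-1 null for epithelia (Epcam by 1.42) and T cells (Cd3g by 1.57), with adjusted p of 0.0274, 0.0449, 0.04997 and 0.0292 in limma. Other markers of the last 2 lists went the other way in the PARP-1 null without passing. Means above 0 were found for 2 of 6 epithelial markers, the highest Krt8 at 1.16, and for 3 of 7 T and NK cell markers, the highest Cd3d at 1.05. Of 11 fibroblast markers, vimentin (Vim) rose in the PARP-1 null by 2.05 and in the double mutant by 2.51 (adjusted p 0.0408 and 0.0208 in limma), and the list's median was above 0 on all 6 arrays, between 0.06 and 1.10. The list was not uniform: in the double mutant 8 markers had a mean above 0 and 3 below. The lowest of these means was -1.64, and 0 markers passed as lower.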

How the data were processed

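The deposited table holds log ratios, 22393 spots on each of 6 arrays, made by the authors. The values stop exactly at 2, which is how the log10 scale of the deposited values was read. Base, direction, background correction, centring and filters were not given in the sources used here. Ratios were multiplied by 3.32 to log2. Spots were named by the platform annotation (18218 with 1 symbol, 16 with several, 4159 with none) and averaged per gene, with 4175 other features kept. A single limma 3.58.1 fit in R 4.3.3 (lmFit and eBayes, 6 arrays, 1 coefficient per genotype) tested all 20679 features with Benjamini-Hochberg adjustment. The code of the fit was also run on simulated data, which checks the code and not the calls. The genes named are members that passed or lay past 2-fold on both arrays of a genotype, members at exactly 0 on 3 or more arrays, and, of pathway and marker lists, those that passed or had the largest means. Members and lists were chosen with earlier results of these data known. The replicates are pools of different litters, and 2 per genotype limit the precision. The duplicate double mutant array carries a strain label of wild type for its mutant channel, while its title and source name say double mutant, and was used as such. Same-numbered arrays were checked for pairing. Their deviations correlated by -0.112, -0.166 and 0.145, so the numbers were not taken as pairs. Alternatives covered exact zeros, scaling, spot averaging, moderation, arrays left out, the block and the sign.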

Additional observations from a re-analysis of the deposited data

Results flagged for a closer look

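For 7 chemokine genes every array of 1 mutant lay above 0 and every array of another below 0. How many of all named genes do so was not counted, so the 7 are not a result about chemokines as a group. Each difference between the 2 mutants was tested in limma, and 0 of the 11 differences passed with Benjamini-Hochberg adjustment. Ppbp was below 0 in the Wrn mutant and above 0 in the other genotypes, a difference of 5.50 for the double mutant (adjusted p = 0.105) and of 2.64 for the PARP-1 null (0.341). Ccl3 was above 0 in the Wrn mutant and below 0 in the others, a difference of -1.57 for the double mutant (0.316) and -1.92 for the PARP-1 null (0.454). Ccl4 had the same signs, with -1.88 (0.177) and -1.92 (0.300). Cxcl10 and Cxcr6 had opposite signs in the double and the Wrn mutant, with -1.88 (0.392) and 1.84 (0.155). Ccl5 was below 0 in the PARP-1 null alone, by -1.62 against the Wrn mutant (0.410), and lay 1.05 higher in the double mutant than in the PARP-1 null (0.729). Ccl11 was above 0 in the PARP-1 null and below 0 in the double mutant, a difference of -0.60 (0.772).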

How the results depend on the processing

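Counts of chemokine genes that passed in limma depended on how exact zeros, spread and scale were handled. In the Wrn mutant 0 passed, but 8 with exact zeros missing (883 of all named genes against 388), 8 with features at 0 on any array left out (1086), 3 after scale (940) and 3 after quantile normalization (1157). The first 8 included Ccl12, Ccl17, Ccl20, Ccl4, Ccr10 and Cxcl2. In the PARP-1 null the 1 became 10 and 12 under the zero settings and 2 under quantile normalization. It stayed 1 under scale normalization, but Ccr10 was lost (adjusted p = 0.0820 in limma) and Ccl20 passed, higher (0.0449). It became 0 with a robust fit, with no moderation, with the compared arrays alone or with the array number as a replicate block. In the double mutant the 9 became 15 with zeros missing, 2 after scale normalization (1013 of all named genes against 3052), 1 with no moderation (612), 0 with the compared arrays alone and 4 with the replicate block (1215). The labels do not say whether same-numbered arrays share a wild-type pool, so whether this block belongs in the fit is not known. Without 1 array the counts ran from 0 to 3 (Wrn mutant), 0 to 2 (PARP-1 null) and 0 to 5 (double mutant). Between mutants, and for the departure from the sum, leaving out an array gave 0 to 3 for the double against the Wrn mutant and 0 to 2 for the other 3, and the zero settings gave 1 for the double against the Wrn mutant and 1 for the departure. With 1.5-fold in place of 2-fold, the 6 and 10 past it on both arrays became 10 and 16. Turning the sign reversed all calls: Ccr10 to 3.10 in the PARP-1 null, and for the double mutant Ccr10 to 4.50, Ccl17 to 2.03, Ppbp to -4.33, Cxcl14 to -2.80, Cxcl1 to -2.26, Cxcl2 to -2.22, Ccl20 to -1.92, Cxcr6 to -1.19 and Ccl25 to -0.77. The causes of these shifts were not tested. Signal over background is not known here.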
